A study of Homo sapiens with 6 samples.

Results

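Creatine synthesis and the conjugation of acids with glycine are reactions that use glycine as a building block. The 8 genes described here, GATM, GAMT, SLC6A8, CKB, GLYAT, GLYATL1, BAAT and SLC27A5, were chosen by name for these reactions, out of 57500 genes in the deposited tables. The choice was made with earlier results of these data known. RNA was measured by sequencing in wild-type cells of HepG2, a line from a human hepatocellular carcinoma. The cells received glycine (10 mM) or vehicle for 24 h, with 3 independent libraries per group, and the vehicle medium itself contained some glycine. The libraries held between 31795489 and 58815986 counts, and glycine replicate 2 was the deepest. As a check of the label, all 10 hepatocyte marker genes were detected, and APOB had the highest mean, 10752 CPM (counts per 1000000, on scaled library sizes) with vehicle.

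Creatine is made in a pair of steps. GATM (glycine amidinotransferase) transfers an amidino group from arginine to glycine, and GAMT (guanidinoacetate methyltransferase) methylates the product with S-adenosylmethionine. SLC6A8 carries ready-made creatine into cells, and CKB, the brain-type creatine kinase, converts creatine to phosphocreatine. In the liver, glycine is also joined to acids to make them more soluble. GLYAT and GLYATL1 are N-acyltransferases, and GLYAT joins glycine to acyl-CoA esters such as benzoyl-CoA. SLC27A5 (bile acyl-CoA synthetase) activates bile acids with coenzyme A, and BAAT (bile acid-CoA:amino acid N-acyltransferase) then attaches glycine or taurine.

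HepG2 cells expressed GAMT, CKB and SLC6A8 at high levels, the bile acid genes at lower ones, and GATM, GLYAT and GLYATL1 hardly at all. The level per length, in CPM per kilobase of exon with vehicle (mean ± SD, n = 3), was 134 ± 11.5 for GAMT, 69.5 ± 5.55 for CKB and 20.7 ± 1.89 for SLC6A8. It was 1.44 ± 0.0591 for SLC27A5, 0.682 ± 0.0859 for BAAT and 0.0569 ± 0.0111 for GATM. GLYAT was at 0.0121 ± 0.0105 and GLYATL1 at 0.00345 ± 0.00299. In this order the vehicle libraries of neighbouring genes did not overlap, except for GLYAT and GLYATL1. Among the 15492 genes that passed the filter on low counts, GAMT lay above 98.2%, CKB above 95.9% and SLC6A8 above 84.7% by level per length. SLC27A5 lay above 33.5%, BAAT above 22.2% and GATM above 1.45%. With glycine the order was the same for the first 6 genes.

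**Figure D1:**
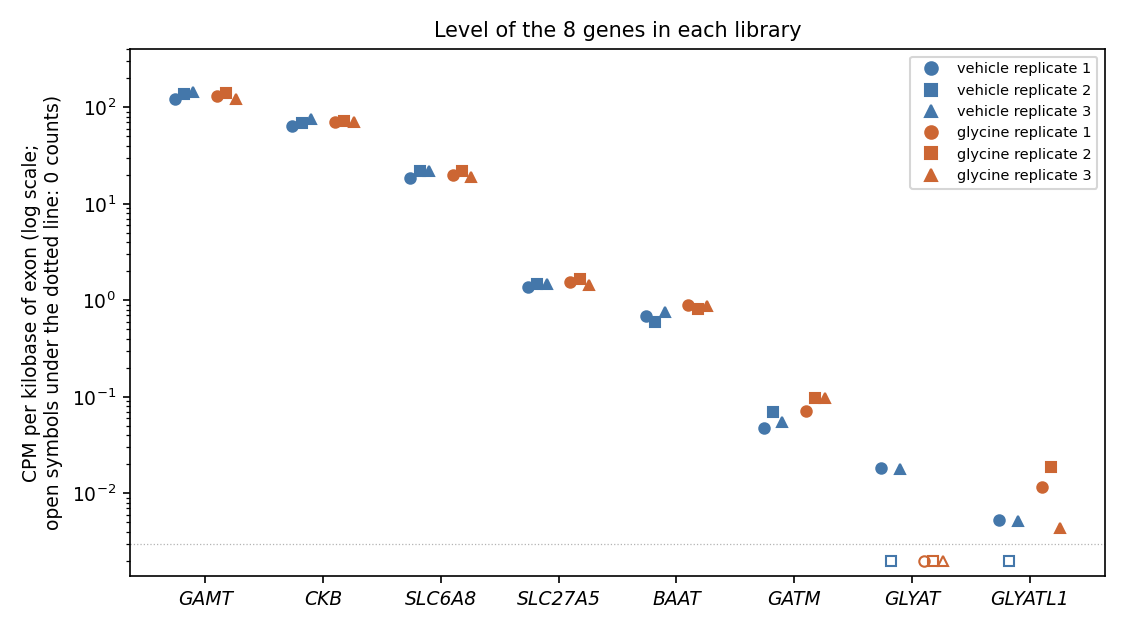
Level of each gene in CPM per kilobase of exon (log axis), with 1 symbol per library, vehicle in blue and glycine in orange. GAMT, CKB and SLC6A8 sit at 18.6 CPM per kilobase or above, while GLYAT and GLYATL1 do not pass 0.0188 in any library, and open symbols mark libraries with 0 counts.

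The start-site regions of 3 of these genes are printed to set their base composition beside these levels, each with 250 bases before and 50 after the RefSeq start (GRCh38.p14). Capitals mark every CG step, the dinucleotide that is dense in CpG islands. Both CKB and GATM are shown as CG-dense regions of genes with very different levels, and GLYAT as a CG-poor region of a gene with almost no counts. The windows lie on the minus strand at chr14:103522781-103523080, chr15:45378495-45378794 and chr11:58731894-58732193.
CKB: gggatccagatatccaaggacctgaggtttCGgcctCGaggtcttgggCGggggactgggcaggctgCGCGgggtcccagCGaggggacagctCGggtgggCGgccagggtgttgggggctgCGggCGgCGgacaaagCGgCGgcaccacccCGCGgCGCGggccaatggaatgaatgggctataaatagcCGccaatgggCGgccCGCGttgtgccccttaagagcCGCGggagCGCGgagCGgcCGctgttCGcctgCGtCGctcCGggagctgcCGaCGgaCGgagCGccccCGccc
GATM: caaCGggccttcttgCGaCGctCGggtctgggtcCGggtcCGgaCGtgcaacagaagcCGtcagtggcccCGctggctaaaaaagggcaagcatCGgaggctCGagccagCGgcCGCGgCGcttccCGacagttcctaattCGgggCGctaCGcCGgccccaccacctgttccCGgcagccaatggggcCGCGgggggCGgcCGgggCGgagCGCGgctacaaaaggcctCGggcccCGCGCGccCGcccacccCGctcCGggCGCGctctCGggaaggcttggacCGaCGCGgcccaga
GLYAT: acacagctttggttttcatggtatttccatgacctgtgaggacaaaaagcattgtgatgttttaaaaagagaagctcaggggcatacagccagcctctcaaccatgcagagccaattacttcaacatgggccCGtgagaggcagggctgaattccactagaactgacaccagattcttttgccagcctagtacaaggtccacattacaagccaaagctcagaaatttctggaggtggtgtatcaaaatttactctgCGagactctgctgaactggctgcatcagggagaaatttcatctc
These windows hold 36, 41 and 2 CG steps, against a median of 14 over 35116 promoters in the RefSeq table. GATM has more CG steps than 93.3% of those promoters and CKB more than 87.3%, although CKB was at 69.5 and GATM at 0.0569 CPM per kilobase. The letters TATAAA, searched on both strands, occur in the CKB window and in neither of the others, and in 11.5% of all promoters. The SLC6A8 window holds 32 CG steps, that of SLC27A5 2 and both BAAT windows 1 each. The 3 windows of GLYATL1, which also had almost no counts, hold 20, 6 and 0, and the first has more than 58.8% of all promoters. Of the 8 genes 7 had an entry, all but GAMT.

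None of the 8 genes changed past the threshold with glycine. The edgeR quasi-likelihood test called 0 of the 6 members that could be tested at an adjusted p under 0.05, and GLYAT and GLYATL1 were too low to test. Among all 15492 tested genes the share called was 13.3%, with 6.71% called higher and 6.54% called lower. GATM and BAAT, 2 of the members, had an unadjusted p under 0.05, as did 27.3% of all tested genes. DESeq2 called 0 members and had 0 at that unadjusted level, and limma with voom called 0 and had 2. The median log2 change of the 6 members was 0.07, beside 0.00 over all tested genes. In bulk RNA, fewer cells with a transcript and less of it per cell cannot be told apart.

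**Figure D2:**
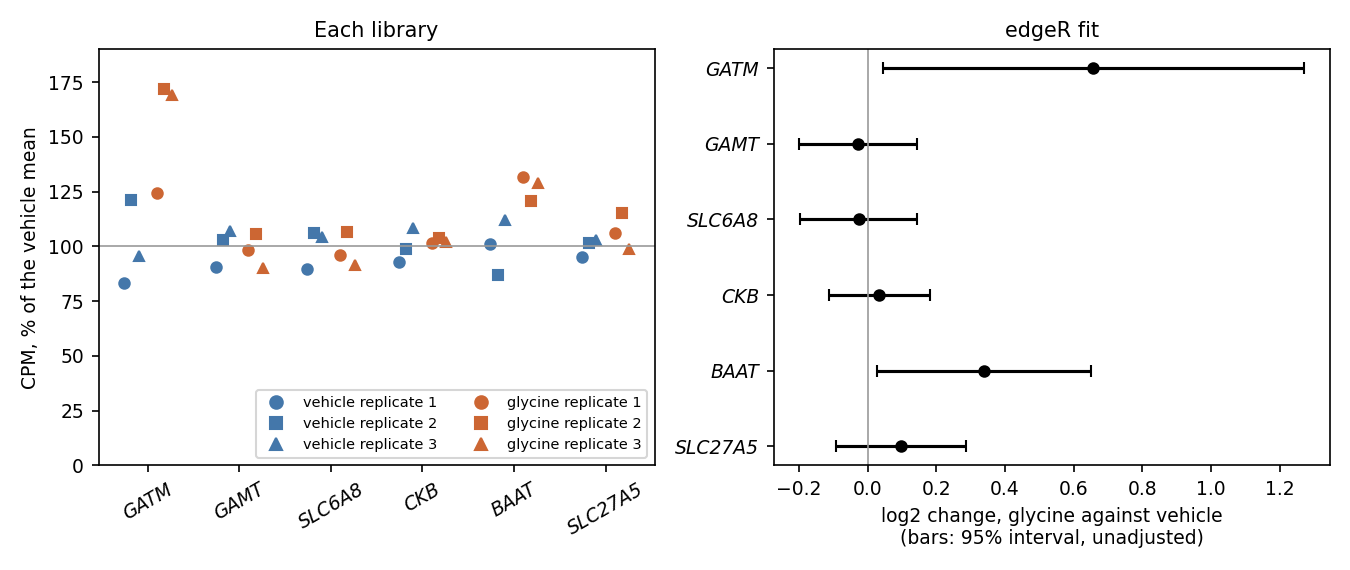
Left, CPM of each library as a percentage of the vehicle mean, for the 6 tested genes. Right, the log2 change with glycine from edgeR with its 95% interval, not adjusted for the number of genes. All 3 glycine libraries lie above the vehicle libraries for GATM and BAAT, and the groups overlap for the other 4 genes. Over all tested genes, 31.6% separated in either direction.

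Of the creatine synthesis genes, GATM was measured near the lower limit of the data. GATM (ENSG00000171766) lies on the minus strand of chromosome 15 from 45361124 to 45402327 (GRCh38, as for the other genes). Its counts were 11, 16 and 13 with vehicle and 15, 38 and 27 with glycine. These correspond to 0.314, 0.459 and 0.362 CPM with vehicle and to 0.470, 0.649 and 0.640 CPM with glycine. Every glycine library was above every vehicle library, a separation seen for 31.6% of all tested genes in either direction. Before scaling for depth, vehicle replicate 2 held 16 counts and glycine replicate 1 held 15, so these libraries are ordered by the scaling. The log2 change was 0.66 ± 0.285 (s.e., edgeR adjusted p = 0.154), which did not pass the threshold. Its 95% interval, not adjusted for the number of genes, ran from 0.04 to 1.27, or 1.03-fold to 2.42-fold. Counting error alone gives a vehicle library a coefficient of variation of 27.4% at this level, and the libraries varied by 19.5%.

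GAMT, the methyltransferase that completes creatine, was the most abundant member per length, and its groups overlapped. GAMT (ENSG00000130005) lies on chromosome 19 from 1397084 to 1401570. It was at 212, 241 and 250 CPM in vehicle and at 230, 248 and 211 CPM with glycine. The lowest library was glycine replicate 3 and the highest vehicle replicate 3. The log2 change was -0.03 ± 0.0794 (s.e., edgeR adjusted p = 0.857), with a 95% interval from 0.870-fold to 1.10-fold.

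The level of GAMT per length exceeded that of GATM by 2297-fold with vehicle and by 1474-fold with glycine. This ratio is taken within each library, so it does not depend on how libraries are scaled. It does depend on the annotated exon length, 6644 bases for GATM and 1743 for GAMT. Without division by length the vehicle means were 234 CPM for GAMT and 0.378 CPM for GATM. The log2 ratio of GATM to GAMT was -11.17 ± 0.212 with vehicle and -10.53 ± 0.278 with glycine (SD, n = 3). All 3 glycine libraries had the higher ratio (exact permutation test, two-sided, p = 0.1, which is the smallest that 3 against 3 allows). Over the 3 gene pairs compared, the adjusted p of the exact permutation test was 0.3.

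The RNA of SLC6A8 and CKB, members for the uptake and use of creatine, also stayed within the spread between libraries. SLC6A8 (ENSG00000130821), the creatine transporter, lies on chromosome X from 153688099 to 153696593. It was at 102, 121 and 119 CPM in vehicle and at 110, 122 and 104 CPM with glycine, so the groups overlapped. Its log2 change was -0.03 ± 0.0795 (s.e., edgeR adjusted p = 0.870), with a 95% interval from 0.872-fold to 1.11-fold. Its near-copy SLC6A10P, a pseudogene on chromosome 16, held 1 count in all 6 libraries together. How the authors' counting placed reads that match both is not given in the sources used here.

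CKB (ENSG00000166165), on chromosome 14 from 103519659 to 103523111, was at 172, 183 and 202 CPM with vehicle. With glycine it was at 188, 193 and 189 CPM, inside the vehicle range. The log2 change was 0.03 ± 0.0679 (s.e., edgeR adjusted p = 0.797), with a 95% interval from 0.925-fold to 1.13-fold. CKB made up between 97.1% and 98.1% of the summed level per length of the 5 creatine kinase genes in each library. The log2 ratio of CKB to SLC6A8 was 1.75 ± 0.0929 with vehicle and 1.81 ± 0.0960 with glycine (SD, n = 3; exact permutation p = 0.4, adjusted over 3 pairs 0.4).

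The N-acyltransferase genes GLYAT and GLYATL1 were almost undetected. GLYAT (ENSG00000149124, chromosome 11, 58640426 to 58731974), which is abundant in normal liver, had 2, 0 and 2 counts with vehicle and 0 in each glycine library. Summed over a group, this was 4 of 106465280 counts with vehicle and 0 of 132235584 with glycine, which allows a level of up to 0.0227 CPM. GLYATL1 (ENSG00000166840, chromosome 11, 58905398 to 59043527) had 1, 0 and 1 counts with vehicle and 2, 6 and 1 with glycine. The highest library was glycine replicate 2, at 0.102 CPM, and no other library passed 3 counts for either gene. The 5 genes of the family together gave 12 counts with vehicle, or 0.113 CPM (exact Poisson 95% interval 0.0582 to 0.197), and 13 with glycine, or 0.0983 CPM (0.0524 to 0.168). At this depth the acyltransferases could not be told apart between the groups, and no fold change is given. The limits and intervals describe counting error alone, since reads were not tied to single molecules by identifiers.

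Both bile acid conjugation genes were expressed at low levels, SLC27A5 above 33.5% and BAAT above 22.2% of tested genes per length. These shares depend on the annotated exon lengths, 8025 bases for SLC27A5 and 3389 for BAAT. SLC27A5 (ENSG00000083807, chromosome 19, 58479512 to 58512413), which activates bile acids with coenzyme A, was at 11.0, 11.8 and 11.9 CPM with vehicle. It was at 12.3, 13.3 and 11.4 CPM with glycine, and the groups overlapped. The log2 change was 0.10 ± 0.0874 (s.e., edgeR adjusted p = 0.523), with a 95% interval from 0.938-fold to 1.22-fold. Other genes cover 16.5% of its exon length, mostly ZNF446 on the opposite strand, so some of its reads may belong to that gene.

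BAAT (ENSG00000136881, chromosome 9, 101360417 to 101383519), the enzyme that attaches glycine or taurine, was at 2.34, 2.01 and 2.59 CPM with vehicle. With glycine it was at 3.04, 2.79 and 2.99 CPM. All 3 glycine libraries were above all 3 vehicle libraries, as for GATM, while 31.6% of all tested genes separated in either direction. The log2 change was 0.34 ± 0.145 (s.e., edgeR adjusted p = 0.149), and it did not pass the threshold. Its 95% interval, not adjusted for the number of genes, ran from 1.02-fold to 1.57-fold. BAAT rested on 70 to 163 counts per library. The log2 ratio of SLC27A5 to BAAT was 1.08 ± 0.191 with vehicle and 0.82 ± 0.168 with glycine (SD, n = 3; exact permutation p = 0.3, adjusted over 3 pairs 0.4).

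Genes that feed these reactions were described from lists compiled for each pathway, with earlier results of these data known. The clearest change was among the medium-chain acyl-CoA ligases, which make the acyl-CoA esters that GLYAT joins to glycine. Of 10 listed genes (7 ligases other than SLC27A5 and 3 further N-acyltransferases), 5 could be tested. All 5 were ligases and all 5 were called lower, beside 6.54% called lower over all tested genes. Their median log2 change was -1.16, against 0.00 over all tested genes. Of the other 5, GLYATL1B, GLYATL2 and ACSM6 had 0 counts in every library, GLYATL3 had 10 counts in all and ACSM4 had 48.

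Mean ACSM2A was 4.30 ± 0.558 CPM in vehicle and 1.28 ± 0.0883 CPM in glycine libraries (SD, n = 3), and it fell by 1.73 on the log2 scale (edgeR adjusted p = 9.55e-06). Mean ACSM2B was 10.7 ± 0.161 and 4.25 ± 0.315 CPM, and it fell by 1.33 (edgeR adjusted p = 2.59e-06). These genes are near-identical copies whose reads can be split in counting, and their sum was 14.2, 15.2 and 15.55 CPM in the vehicle libraries and 5.45, 5.93 and 5.21 CPM in the glycine libraries. ACSM5 fell by 1.16 on the log2 scale, ACSM3 by 0.79 and ACSM1 by 0.79, with edgeR adjusted p of 7.88e-05, 1.22e-05 and 0.0150. ACSM3 was the ligase with the most reads, 179 ± 14.4 CPM in vehicle and 104 ± 6.21 CPM in glycine libraries. For each of the 5 genes every glycine library was below every vehicle library, while 31.6% of all tested genes separated in either direction. The call of ACSM1 was lost without glycine replicate 2 (edgeR adjusted p = 0.0770).

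**Figure D3:**
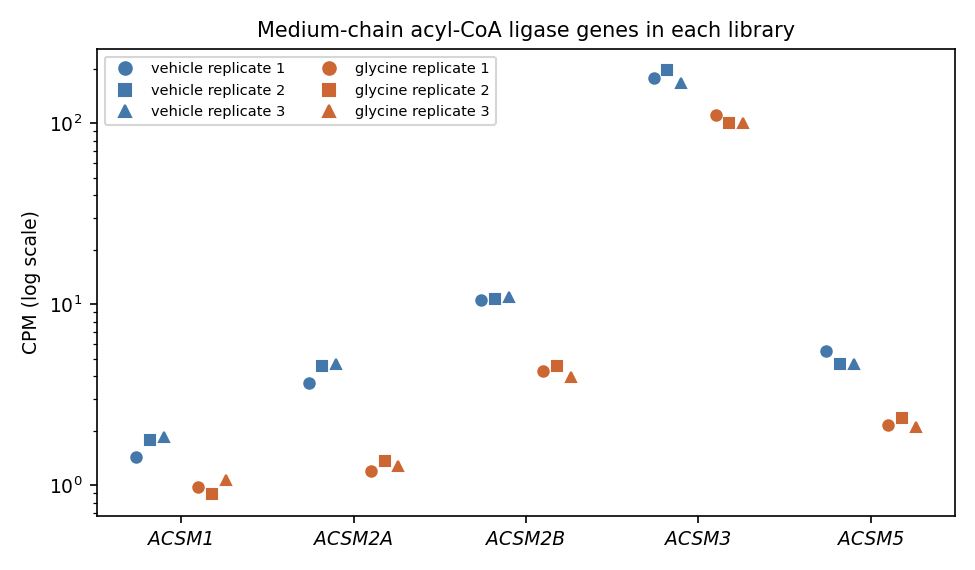
CPM (log axis) of the 5 tested medium-chain acyl-CoA ligase genes, 1 symbol per library. The 3 glycine libraries lie below the 3 vehicle libraries for each gene, at all levels from a lowest library of 0.889 CPM for ACSM1 to a highest of 195 CPM for ACSM3.

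Of 16 other genes of creatine metabolism 13 were tested, and the calls were 1 higher and 2 lower at a median log2 change of -0.04. This is 23.1% of the tested genes of the list, beside 13.3% over all tested genes. AHCY, which clears the S-adenosylhomocysteine left by GAMT and other methyltransferases, was at 533, 632 and 557 CPM in vehicle and at 721, 739 and 676 CPM with glycine. It rose by a log2 change of 0.31 (edgeR adjusted p = 0.0197). CKMT2, a mitochondrial creatine kinase, fell by 0.74 on the log2 scale (edgeR adjusted p = 0.0186), its means being 1.73 ± 0.0111 and 1.01 ± 0.167 CPM. OAT, ornithine aminotransferase, which uses the ornithine that GATM releases, fell by 0.22 (edgeR adjusted p = 0.0320). These calls were lost in some fits that left out a library. The edgeR adjusted p of AHCY was 0.0970 without vehicle replicate 1, 0.0530 without vehicle replicate 3, 0.0871 without glycine replicate 1 and 0.0726 without glycine replicate 2. That of CKMT2 was 0.0508 without vehicle replicate 1, 0.0682 without glycine replicate 1 and 0.0569 without glycine replicate 3. The OAT call was lost without every library but vehicle replicate 2, with edgeR adjusted p between 0.0745 and 0.0951.

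Of 13 genes for side-chain shortening, taurine supply and conjugation, all were tested, and edgeR called 2 of them lower and 0 higher (median log2 change -0.13), a share of 15.4% that is near the 13.3% over all tested genes. CYP27A1, the sterol 27-hydroxylase, fell by 0.30 on the log2 scale (edgeR adjusted p = 0.00563), and SLC6A6, the taurine transporter, by 0.48 (edgeR adjusted p = 0.00251). Of 10 genes for ring synthesis and transport, 7 were tested, and edgeR called 3 of them lower and 0 higher (median -0.42), a share of 42.9%. CYP8B1, the sterol 12-alpha-hydroxylase, fell by 1.02 on the log2 scale, NR1H4, which encodes the bile acid receptor FXR, by 0.44, and NR0B2, a target of FXR, by 0.42. Their edgeR adjusted p were 0.00576, 0.00220 and 0.0111. CYP8B1 was low, with 2.10 ± 0.406 CPM in vehicle and 1.05 ± 0.170 CPM in glycine libraries (SD, n = 3).

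**Figure D4:**
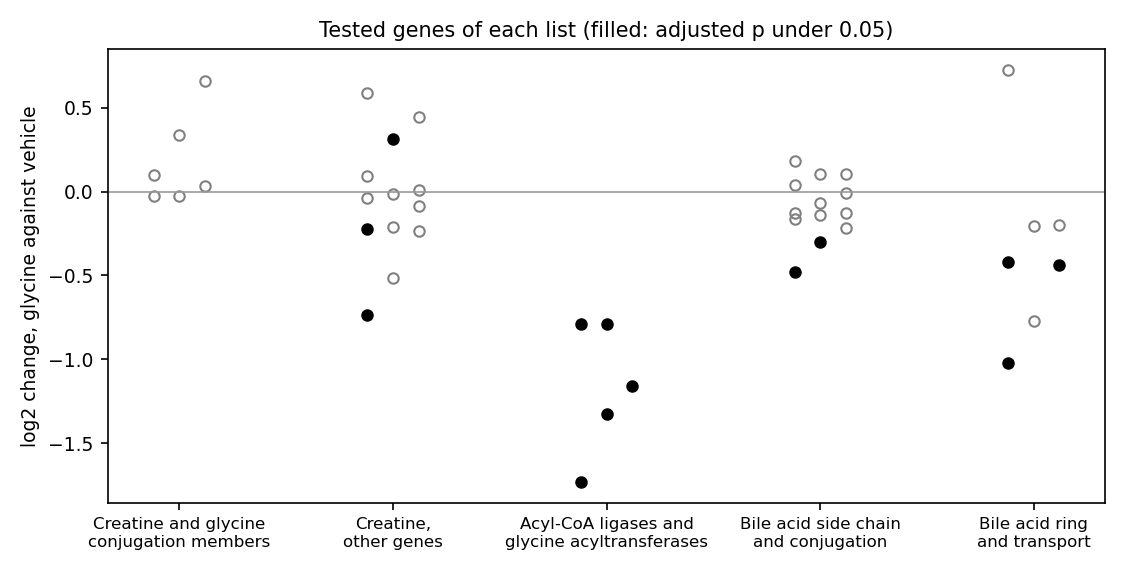
Log2 change with glycine of each tested gene, grouped by list, with filled symbols for an edgeR adjusted p under 0.05. The 6 tested members are all open, between -0.03 and 0.66, whereas the 5 acyl-CoA ligases are all filled and lie between -1.73 and -0.79.

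Of the 10 hepatocyte markers 0 were called higher and 2 lower (APOA1 and TTR), a share of 20% beside 13.3% over all tested genes. Their summed level ran from 29645 to 33704 CPM with vehicle and from 25466 to 29164 CPM with glycine. Of 10 markers of immune, endothelial, stellate and biliary cells 7 were tested, and 71.4% of these were called. The calls were 3 higher (CD14, CD68 and COL1A1) and 2 lower (VWF and SOX9). Their summed level, mostly SOX9, ran from 269 to 293 CPM with vehicle and from 230 to 252 CPM with glycine. No marker of that list was at 0 in all libraries, but the immune marker PTPRC held 9 counts in all and the stellate marker DCN 3. The part of these shifts in the values above was not tested.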

How the data were processed

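Each library has 1 deposited table of raw read counts for every gene. Per the labels, the authors used Trimmomatic 0.36, STAR 2.5.2b and featureCounts (Subread 1.5.2) with GRCh38, and the annotation and strand setting are not given in the sources used here. Of 57500 gene identifiers 54773 had the same start and end in GENCODE release 29. Libraries were grouped by their titles.

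Counts were tested with the edgeR 4.0.16 quasi-likelihood test in R 4.3.3 (two-sided, group alone, trimmed mean of M values scaling). Low genes were removed with filterByExpr (count minimum 10, total minimum 15), and Benjamini-Hochberg adjustment covered 15492 genes at a threshold of 0.05. CPM used scaled library sizes, except pooled levels and limits of GLYAT, GLYATL1 and their family, and the highest GLYATL1 library, which used library totals. The limit for 0 counts is 3 counts. Levels were divided by the exon length in the files, and ratios used 0.5 added counts. 1 count was worth between 0.017 and 0.0315 CPM.

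The script was tested on simulated data of the same comparison (15295 genes): 170 of 200 genes given a log2 change of 1 were recovered, with 14 false calls. Libraries of a group differed beyond sampling noise (chi-square over its degrees of freedom 6.97 to 26.8).

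The members and lists were chosen with earlier results of these data known. All members are named, and of each pathway list the genes past the threshold, at most 6. Genes that resemble a member across libraries were to be named only for members past the threshold, of which there were 0. SLC6A10P, ZNF446, the marker genes and list genes without a call were named after their values were seen. Alternatives were other scalings and filters, DESeq2 1.42.0, limma 3.58.1 with voom, the fit blocked on replicate number, and the omission of single libraries.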

Additional observations from a re-analysis of the deposited data

How the results depend on the processing

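The 6 tested members stayed uncalled under every alternative that gave a value. Adjusted p ran from 0.139 to 0.379 for GATM and from 0.113 to 0.333 for BAAT, with the change above 0 throughout. GATM had no value with the filter of 1 CPM in 3 libraries. With every gene of at least 1 count tested, edgeR gave an adjusted p of 0.314 for GLYAT and 0.570 for GLYATL1. The sign of the uncalled GAMT, SLC6A8 and CKB changes depended on single libraries: across the fits that each left out 1, their log2 changes ran from -0.107 to 0.0208, from -0.111 to 0.0191 and from -0.0284 to 0.0970. Over all genes, those fits called between 587 and 926 higher and between 655 and 1010 lower, against 1040 and 1013 with all 6 libraries. The number higher was 590 without vehicle replicate 1, 594 without glycine replicate 1, 617 without glycine replicate 2 and 587 without glycine replicate 3, and the number lower was 655 without glycine replicate 2. These fits have fewer samples.

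The paper defines replicates as experiments on separate days. For its cell-based assays it adds that every day's run held both controls and treated samples. Which libraries shared a day is not given, and the main tests used no pairing. Vehicle and glycine libraries of equal number had deviations (library minus group mean) with correlations of -0.058, -0.027 and -0.003, so the numbers did not pair the libraries by this check. Across the 6 pairs of unequal number the correlations ran from -0.198 to 0.214. Glycine replicates 3, 1 and 2 correlated with vehicle replicates 1, 2 and 3, in that order, at 0.214, 0.214 and 0.18. This matching was picked after the correlations were seen. Because the deviations are taken from group means, the correlations depend on each other. Whether these libraries shared a day was not tested. Under a replicate block the calls were 866 higher and 918 lower, GATM had an adjusted p of 0.227 and BAAT 0.167, and of the 13 called pathway genes compared this way OAT lost its call (0.0652). The marker genes and the chromosome 16 neighbours were not compared. OAT also lost it with every gene of at least 1 count tested (0.0576).

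With 5 added counts in place of 0.5, the difference between groups in the GATM to GAMT log2 ratio was 0.48 in place of 0.64, and the differences of the other ratios were 0.06 and -0.23. The order of the members in TPM is that of CPM per kilobase by construction, so it was no separate check. Depth limits GATM, GLYAT and GLYATL1 most.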

Other observations

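The 5 tested acyl-CoA ligase genes lie within 1 span of chromosome 16, and the neighbours were looked up after the ligases had been seen to fall. The span from the start of ACSM5 to the end of ACSM3 (20409534 to 20797581, GRCh38) overlaps 16 genes of the files, of which 8 were tested. The other 3 tested genes were THUMPD1, ERI2 and AC004381.2. THUMPD1 averaged 56.4 CPM in vehicle and 64.4 CPM in glycine libraries, a log2 change of 0.19 (edgeR adjusted p = 0.0977). ERI2, which shares exon sequence with ACSM3 on the opposite strand, rose by a log2 change of 0.28 (edgeR adjusted p = 0.0219). AC004381.2, a low transcript, fell by 1.71 on the log2 scale, from 0.653 to 0.205 CPM (edgeR adjusted p = 0.0116). Of the genes called in this span, ERI2 alone rose, while the ligases and AC004381.2 fell.

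Glycine replicate 2 held 6 of the 11 GLYATL1 counts over all libraries. At 58815986 counts it was also the deepest library.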
